A study of Mus musculus with 56 samples.

Results

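The secreted and membrane-bound enzymes that cut the extracellular matrix, together with the proteins that hold them in check, were followed through the day in the visceral adipose tissue (VAT) of mice fed at opposite times. The set comprised every protein-coding gene of the expression table whose symbol is Mmp, Adamts, Adamtsl or Timp followed by its number. That rule found 47 of 25939 genes, namely 19 matrix metalloproteinases, 19 ADAMTS proteinases, 5 ADAMTS-like proteins and 4 tissue inhibitors of metalloproteinases. The mice were C57BL/6J females, 9 weeks old, group-housed on normal chow under equal spans of light and darkness. Food was then given only by day (daytime-restricted feeding, DRF) or only by night (nighttime-restricted feeding, NRF) for 7 days. VAT was taken at zeitgeber time (ZT, hours after lights on) 0, 4, 8, 12, 16, 20 and 24, with 4 libraries per regimen and time, which gave 56 polyA RNA-seq libraries. The comparison asks which of these genes follow the time of feeding and which keep to the light-dark cycle.

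Adipose tissue is wrapped in a collagen-rich matrix that is cut and rebuilt as fat cells swell and shrink. Matrix metalloproteinases are zinc enzymes made as inactive precursors, and TIMP proteins block them by sitting in the active site. ADAMTS proteinases are related zinc enzymes that cut large proteoglycans, trim procollagens or cut plasma proteins, while the ADAMTS-like proteins carry the accessory domains without the catalytic one. In a well-known arrangement, Timp2 bridges the membrane-bound enzyme Mmp14 to pro-Mmp2, so that a neighbouring Mmp14 molecule can activate it.

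Recovered reads per library ran from 30991988 to 41023908, and values are given as counts per library scaled to its effective size (CPM, reads for each 1e6). The 8 adipocyte markers summed to 15503 to 33735 CPM under NRF and 6403 to 21998 CPM under DRF. Cfd was the largest part of this sum, with a median of 12396 CPM under NRF and 4691 CPM under DRF. DRF ZT0 replicate 4 and DRF ZT8 replicate 1 stood apart. The sum of the 12 measured of 13 uterine epithelium markers was 5779 and 728 CPM in them, against a median of 42.9 and a highest value of 127 CPM in the other 54 libraries. Among these markers, Wfdc2, Msx2, Foxa2, Cldn4 and Ltf each had a median under 0.1 CPM. The 7 uterine stroma markers summed to 263 and 736 CPM against at most 182 CPM elsewhere, and the adipocyte sum was 11321 and 6403 CPM.

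Several members were high in these 2 libraries. Relative to the median of the other 54, Mmp11 was 3.74 and 2.49 times, Mmp14 2.45 and 2.29 times, and Timp1 2.64 and 1.45 times as high in the ZT0 and the ZT8 library. In the ZT8 library Mmp25 was 8.62, Adamts8 4.9 and Mmp16 4.26 times that median, and Mmp10 was 12.5 times, at 31 reads. The main counts of members that rest on these libraries are therefore given with and without them, while some subdivisions are given with all libraries only.

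Promoter windows of 250 bases before a RefSeq start site (GRCm38.p6) were at hand for 32 of the 47 members, as 34 windows. Of the 8 motifs searched on both strands, TGAGTCA (the site of AP-1 factors) occurred in 4.46% of 32851 windows of that length over all genes. Among members it was found in windows of Mmp13, Mmp12, Mmp3 and Mmp10, which lie in a row on chromosome 9. Mmp12 has 2 windows in the table, and the one farther upstream (chr9:7344147-7344396) holds none of the motifs searched. The 4 windows with TGAGTCA are printed first, because they come from neighbouring genes. The capitals mark TGAGTCA, which reads TGACTCA on the opposite strand, and TATAAA (the TATA box, in 12.4% of all windows). In Mmp10 they also mark TAGGTCA, a site of ROR and REV-ERB receptors that was in 2.23% of all windows and here reads TGACCTA.
Mmp13, chr9:7272264-7272513, plus strand: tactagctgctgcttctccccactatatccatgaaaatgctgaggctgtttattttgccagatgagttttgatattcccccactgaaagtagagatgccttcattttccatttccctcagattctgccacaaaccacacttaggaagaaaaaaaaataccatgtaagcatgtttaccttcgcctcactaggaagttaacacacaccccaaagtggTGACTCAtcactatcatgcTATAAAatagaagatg
Mmp12, chr9:7347124-7347373, plus strand: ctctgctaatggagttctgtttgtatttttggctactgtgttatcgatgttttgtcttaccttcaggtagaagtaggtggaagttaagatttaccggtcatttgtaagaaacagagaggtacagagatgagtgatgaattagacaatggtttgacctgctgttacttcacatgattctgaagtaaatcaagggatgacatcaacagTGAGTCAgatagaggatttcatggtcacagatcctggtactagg
Mmp3, chr9:7445572-7445821, plus strand: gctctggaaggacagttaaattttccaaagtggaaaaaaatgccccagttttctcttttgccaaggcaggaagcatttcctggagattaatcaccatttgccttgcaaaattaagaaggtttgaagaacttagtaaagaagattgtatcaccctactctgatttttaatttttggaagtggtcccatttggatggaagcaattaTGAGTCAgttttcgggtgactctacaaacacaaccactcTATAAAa
Mmp10, chr9:7502092-7502341, plus strand: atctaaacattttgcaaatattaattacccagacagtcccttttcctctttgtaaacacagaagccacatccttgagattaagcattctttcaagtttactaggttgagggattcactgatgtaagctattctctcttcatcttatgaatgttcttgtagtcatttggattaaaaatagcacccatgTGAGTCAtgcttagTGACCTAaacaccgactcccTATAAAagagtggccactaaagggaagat

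The windows of Timp3 and Mmp15 follow, since the fitted peaks of the regimens lay close together in Timp3 and far apart in Mmp15, as described further on. Capitals mark GGGCGG (the GC box), which reads CCGCCC here and was found in 32.7% of all windows and in 20 of the 34 member windows.
Timp3, chr10:86300162-86300411, plus strand: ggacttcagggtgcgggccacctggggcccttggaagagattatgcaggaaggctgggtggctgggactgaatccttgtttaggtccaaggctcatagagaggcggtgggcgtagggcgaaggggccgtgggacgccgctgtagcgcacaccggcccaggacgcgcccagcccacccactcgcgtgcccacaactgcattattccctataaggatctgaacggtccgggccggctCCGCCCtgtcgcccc
Mmp15, chr8:95352046-95352295, plus strand: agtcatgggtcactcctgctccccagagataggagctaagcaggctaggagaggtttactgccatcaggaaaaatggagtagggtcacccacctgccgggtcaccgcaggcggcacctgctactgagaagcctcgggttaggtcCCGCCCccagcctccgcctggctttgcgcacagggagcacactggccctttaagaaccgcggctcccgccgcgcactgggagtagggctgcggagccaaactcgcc

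Neither of them holds CACGTG, the canonical E-box of the clock activators, which occurred in 6.02% of all windows and in 1 member window, that of Adamts17. The D-box TTATGTAA was found in 0.819% of all windows, its variant TTATGCAA in 0.694% and the cyclic AMP response element TGACGTCA in 1.55%, and each of these was in 0 member windows. A match describes letters only.

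Levels differed widely between members. Per kilobase of exon (RPKM, CPM divided by exon length), the inhibitor Timp2 led with a level of 134 ± 24.8 (SD, n = 56 libraries), followed by the gelatinase Mmp2 with 28.6 ± 10.2 and the inhibitor Timp3 with 23.1 ± 6.65. Mmp19, Adamts5, Mmp28, Mmp14, Timp4, Adamts2 and Mmp23 came next, from 18.9 down to 10.9 RPKM. Neighbours in this order, such as Mmp2 and Timp3 or Mmp19 (18.9 ± 4.03 RPKM) and Adamts5 (18.6 ± 8.76 RPKM), lay within 1 SD of each other, whereas Timp2 stood above the rest. This SD spans both regimens and all 7 times and is no test of a difference, and the order of neighbours was not tested. In 28 members the mean was at least 1 RPKM. No member was at 0 in every library, but Mmp10, Mmp8, Mmp24, Adamts13 and Mmp21 averaged under 10 reads and were at 0 reads in 4 to 27 libraries. For the macrophage elastase Mmp12, at 0.27 ± 0.322 RPKM, the SD exceeded the mean.

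Under DRF, 19 of 47 members differed in mean level from NRF, 15 lower and 4 higher, where 21.7% of all 25937 genes fitted passed the same test (10.3% lower, 11.4% higher). Among the 17285 genes with a mean of at least 10 reads, 42 of them members, 19 members passed, against 33.4% of such genes (15 lower against 16.1%, 4 higher against 17.2%). The test was limma on log2(CPM + 1) with a 24-h cosine for each regimen, and a member passed at an adjusted p under 0.05. The median difference was -0.09 on the log2 scale over the 47 members and -0.0004 over all genes. Without the 2 libraries, 22 members passed, 16 lower and 6 higher, against 28.9% of all genes (14.3% lower, 14.6% higher). The falls took in both gelatinases, the membrane-type enzymes Mmp14 and Mmp17, Mmp11, the inhibitor Timp2 and the procollagen N-propeptidases Adamts2 and Adamts14. The rises were Adamts4, Adamts9, Mmp15 and Adamts7.

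**Figure D1:**
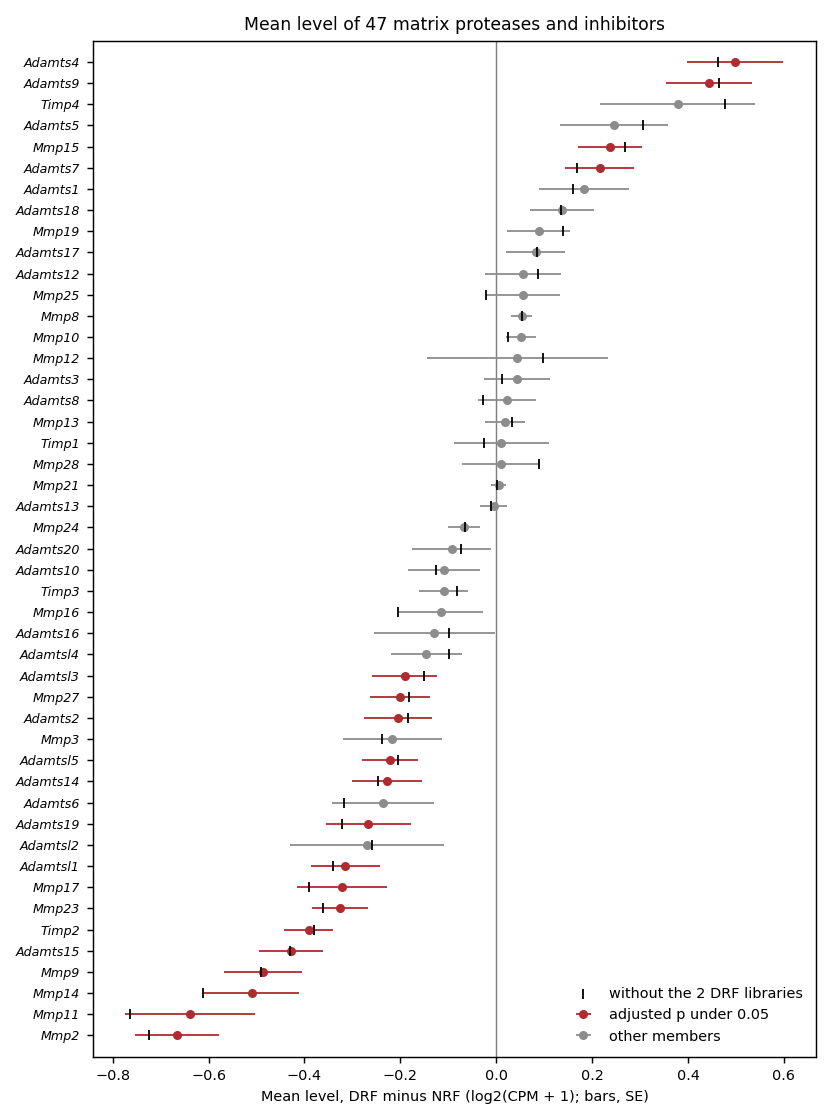
The difference in mean level, DRF minus NRF, of each of the 47 members on the log2(CPM + 1) scale is plotted with its SE (n = 28 libraries per regimen), red where the adjusted p was under 0.05 and grey otherwise, and a black tick marks the value without the 2 DRF libraries that stood apart. Mmp2 is lowest at -0.67, Adamts4 highest at 0.50, and 15 of the 19 red points lie left of 0.

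All 3 partners of the Mmp2 activation complex were lower under DRF. Mmp2 (ENSMUSG00000031740, chr8:92827291-92853420), which cuts denatured collagen and basement membrane collagen, ran from 69.7 to 172 CPM (median 116) over the 28 NRF libraries and from 43.1 to 191 CPM (median 70.7) over the 28 DRF libraries. The ranges overlapped, and the DRF maximum was the ZT8 library with raised uterine markers. The difference was -0.67 ± 0.09 (SE, log2 scale, limma adjusted p = 8.35e-08), and -0.73 without the 2 libraries. At ZT16 the groups were fully apart, with 133, 108, 153 and 114 CPM under NRF and 43.1, 57.5, 70.3 and 52.6 CPM under DRF (-1.18 ± 0.22).

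Mmp14 (chr14:54431612-54445364), the membrane-anchored collagenase, ran from 65 to 153 CPM (median 96.9) under NRF and from 37.9 to 201 CPM (median 67.2) under DRF. Its highest DRF values, 201 and 188 CPM, were those of the 2 libraries that stood apart. The difference was -0.51 ± 0.10 (adjusted p = 0.00011), and -0.61 without them. Timp2 (chr11:118301069-118355740) was lower under DRF at all 7 times, with a median of 439 CPM against 591 CPM and a difference of -0.39 ± 0.05 (adjusted p = 5.48e-08). At ZT4 every NRF mouse (541, 734, 686 and 644 CPM) lay above every DRF mouse (433, 427, 443 and 402 CPM).

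**Figure D2:**
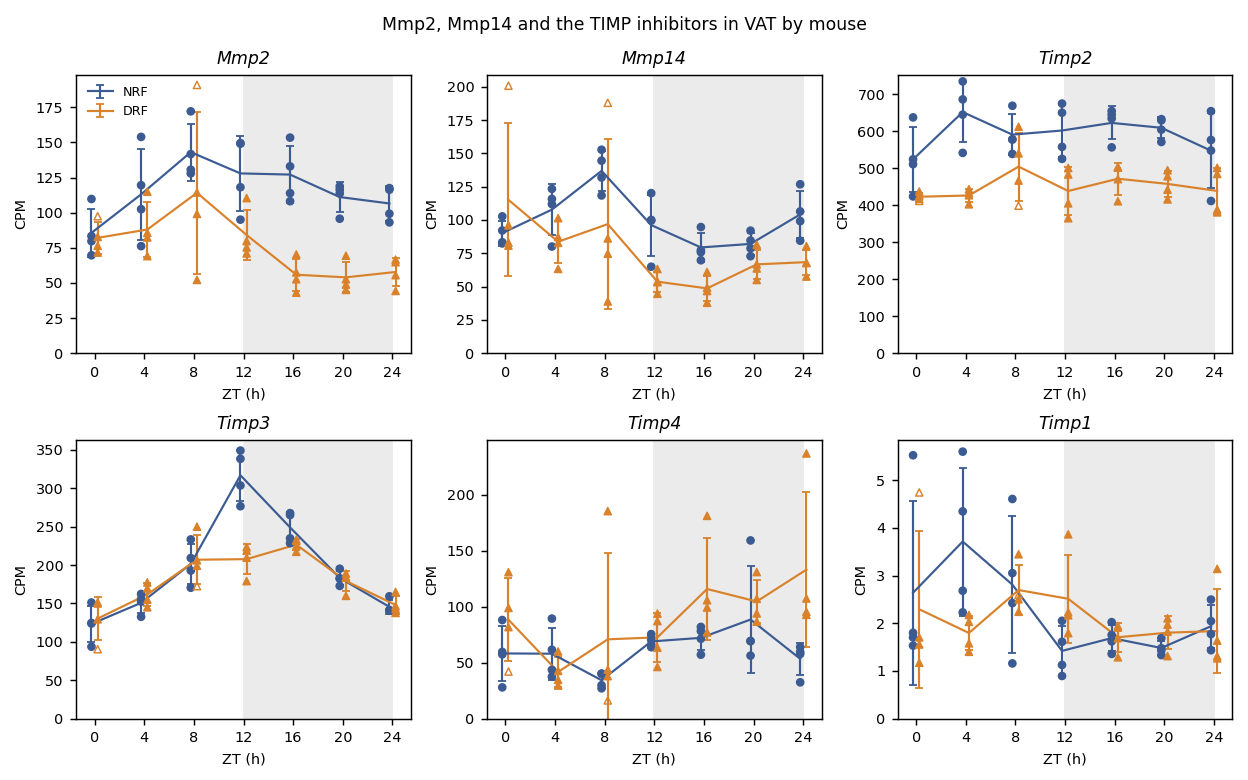
CPM of Mmp2, Mmp14 and the 4 inhibitors is plotted against ZT for each mouse (circles NRF, triangles DRF, lines the group mean with SD, n = 4; open triangles the 2 DRF libraries that stood apart; grey, darkness). The DRF means of Mmp2 and Timp2 lie below the NRF means at every time, and Timp3 is highest at ZT12 under NRF and ZT16 under DRF.

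The second gelatinase, Mmp9 (chr2:164940780-164955850), best known from neutrophils and macrophages, fell as well, and ran from 11.8 to 71 CPM (median 30.6) under NRF and from 10.2 to 34.3 CPM (median 22.8) under DRF. Its difference was -0.49 ± 0.08 (adjusted p = 9.57e-06), and it was lower at all 7 times. Of the 7 measured of 8 neutrophil markers, 1 was higher and 0 lower in mean level, against 11.4% and 10.3% of all genes. Mpo, Ngp and Camp had medians under 0.1 CPM. The list summed to 0.957 to 5.05 CPM (median 2.26) under NRF and 1.82 to 21.7 CPM (median 2.82) under DRF. The DRF maximum was the ZT8 library that stood apart, and without the 2 libraries the highest DRF sum was 4.79 CPM. Mmp11, a stromelysin by name, differed by -0.64 ± 0.14 (adjusted p = 0.000331), and by -0.76 without the 2 libraries, where it was at 48.4 and 32.3 CPM.

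Among the other membrane-type enzymes, Mmp17 was lower (-0.32 ± 0.09, adjusted p = 0.00885) and Mmp15 higher (0.24 ± 0.07, adjusted p = 0.00704). Mmp16, Mmp24 and Mmp25 did not pass with all libraries. Mmp16 was at -0.12 ± 0.09 and passed at -0.21 (adjusted p = 0.00804) without the 2 libraries, in which it was high. Mmp23, whose precursor is membrane-anchored, was lower at all 7 times (-0.33 ± 0.06, adjusted p = 3.09e-05), and so in mean level was the weakly expressed Mmp27 (-0.20 ± 0.06, adjusted p = 0.0157). Mmp19 (0.09 ± 0.07) and the epilysin Mmp28 (0.01 ± 0.08) did not pass.

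The proteoglycan-cutting ADAMTS enzymes moved in both directions. Adamts4 (chr1:171250421-171260637), an aggrecanase, was higher under DRF by 0.50 ± 0.10 (adjusted p = 0.000166), with a median of 7.93 CPM against 5.54 CPM. Adamts9, which cuts versican and aggrecan, was higher by 0.44 ± 0.09 (adjusted p = 0.000202), with medians of 66.7 and 51.2 CPM. Adamts15, of the same group, went the other way at all 7 times (-0.43 ± 0.07, adjusted p = 2.65e-06), with medians of 16.2 and 22.6 CPM. The most abundant of the group, Adamts5, was at 0.24 ± 0.11 (adjusted p = 0.118) and passed at 0.31 (adjusted p = 0.0265) without the 2 libraries, but was at 0.12 (adjusted p = 0.525) in the fit of group means. Adamts1, Adamts8 and Adamts20 did not pass.

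Of the procollagen N-propeptidases, which trim the amino end of fibrillar procollagens, Adamts2 (-0.21 ± 0.07, adjusted p = 0.0296) and Adamts14 (-0.23 ± 0.07, adjusted p = 0.0173) were lower, and Adamts3 was at 0.04 ± 0.07. Of the enzymes that cut cartilage oligomeric matrix protein, Adamts7 was higher (0.22 ± 0.07, adjusted p = 0.0235) and Adamts12 was at 0.06 ± 0.08. Among the ADAMTS-like genes Adamtsl1 (-0.31 ± 0.07), Adamtsl5 (-0.22 ± 0.06) and Adamtsl3 (-0.19 ± 0.07) were lower, and Adamtsl2 and Adamtsl4 did not pass. Adamtsl3 no longer passed without the 2 libraries (adjusted p = 0.0631). Adamts19 was also lower (-0.27 ± 0.09, adjusted p = 0.0232). The calls of Adamts2, Adamts7, Adamts14, Adamts19, Adamtsl3, Adamtsl5, Mmp15 and Mmp27 were each lost when at least 1 replicate number was left out. That of Adamts7 was also lost under scaling by plain totals. In the fit of group means Adamts7 and Mmp27 did not pass, and without ZT24 Adamtsl3 did not.

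Of the 4 inhibitors, Timp2 alone fell in mean level with all libraries. Timp3, which binds to the matrix and also blocks ADAMTS enzymes, was at -0.11 ± 0.05 (adjusted p = 0.126), and passed at -0.15 (adjusted p = 0.0113) under scaling by plain totals. Timp4, an inhibitor known from fat and heart, had the opposite sign at 0.38 ± 0.16 (adjusted p = 0.0886) and passed at 0.48 (adjusted p = 0.0132) without the 2 libraries, in which it was at 42 and 16.2 CPM. Without replicate 3 it was at 0.24 (adjusted p = 0.278). It ran from 27 to 159 CPM (median 60.5) under NRF and from 16.2 to 237 CPM (median 89.8) under DRF. Timp1, induced in inflamed tissue, ran from 0.893 to 5.6 CPM (median 1.76) under NRF and from 1.17 to 4.75 CPM (median 1.93) under DRF (0.01 ± 0.10).

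Markers of several cell types moved beside the falls. The mean-level test called 10.3% of all genes lower and 11.4% higher, and 14.3% and 14.6% without the 2 libraries. Among genes with at least 10 mean reads the shares were 16.1% and 17.2%. Of 8 adipose progenitor and fibroblast markers, 5 were lower and 0 higher under DRF by the same limma test. Their summed level was 7566 to 15103 CPM (median 9385) under NRF and 3712 to 10096 CPM (median 7139) under DRF. Gsn was the largest part of this sum, with medians of 7113 CPM under NRF and 5266 CPM under DRF. The lowest DRF sum was that of the ZT8 library that stood apart, and without the 2 libraries the lowest was 4699 CPM. Of 8 macrophage markers 4 were lower and 0 higher, with sums of 959.7 to 2253 CPM (median 1273) under NRF and 773 to 1527 CPM (median 1083) under DRF. The value of 773 CPM was again that ZT8 library, and without the 2 libraries the lowest was 869 CPM. Of 7 mesothelium markers 4 were lower and 0 higher, with sums of 274 to 758 CPM (median 531) under NRF and 226 to 688 CPM (median 412) under DRF. Every marker of these 3 lists had a median above 20 CPM. Of 6 smooth muscle markers 1 was lower and 0 higher with all libraries, and 6 were lower without the 2 libraries. Their sums ran from 249 to 1215 CPM (median 370.5) under NRF and from 192 to 1056 CPM (median 334) under DRF, where the 2 libraries held 1024 and 1056 CPM and the others at most 536 CPM. Of the 8 adipocyte markers 3 were lower and 1 higher, with a median sum of 23830 CPM under NRF and 17496 CPM under DRF. Cfd, the largest part of that sum, had medians of 12396 and 4691 CPM. The medians of Adipoq and Plin4 were also lower under DRF, while those of Plin1, Lipe, Cidec, Lep and Pck1 were higher. Of the latter, Lep alone passed as higher in limma (0.60, adjusted p = 0.00507). The fitted differences of Plin1 (-0.08), Lipe (-0.08) and Cidec (-0.20) were negative and that of Pck1 was 0.05, and none of these passed. Of 6 endothelial markers 2 were lower and 0 higher (median sums of 811 and 877 CPM), and of 6 lymphocyte markers 2 were lower and 0 higher (7.68 and 6.98 CPM). Their part in the members' differences was not tested, and in bulk tissue fewer cells of a type and less RNA per cell cannot be told apart.

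A 24-h rhythm was called in 24 of 47 members under NRF, where 26.7% of all genes were called, and in 12 of 47 under DRF, where 15.0% were. Among genes with at least 10 mean reads it was 24 of 42 members against 40.7% under NRF, and 13 of 42 against 23.2% under DRF. Under NRF it was 15 to 22 when any 1 replicate number was left out, against 16.8% to 21.7% of all genes, the lowest being without replicate 4. Under DRF it was 15 members without the 2 libraries, against 19.7% of all genes, and 6 to 7 when any 1 replicate number was left out, against 7.43% to 10.8%. The call came from JTK_CYCLE and Lomb-Scargle tests combined, on 28 libraries per regimen, at an adjusted p under 0.05. Of the members, 15 were called under NRF alone (17.4% of all genes), 3 under DRF alone (Adamts2, Mmp3 and Adamts7, against 5.73%), 9 under both (9.28%) and 20 under neither (67.5%). Being called in one regimen and not in the other is no test of a difference. That test, in limma, asks whether the cosine terms differ between regimens, and 21 of 47 members passed it, against 36.0% of all genes. With at least 10 mean reads it was 24 of 42 members, against 51.2% of such genes. Without the 2 libraries 26 passed, against 40.6%. Of the 15 members rhythmic under NRF alone, 11 passed it, against 76.6% of all genes rhythmic under NRF alone.

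The 9 members rhythmic under both were Mmp2, Mmp9, Mmp14, Timp3, Adamts4, Adamts12, Adamts14, Adamts16 and Adamts20. Their fitted peaks lay within 4 h of each other in 6 (Mmp9, Mmp14, Timp3, Adamts4, Adamts14 and Adamts16), were 4.24 and 6.65 h apart in Mmp2 and Adamts20, and were 8 h or more apart in Adamts12. Among all 2406 genes rhythmic under both, 7.48% had peaks within 4 h and 77.3% had peaks 8 h or more apart. With the phases of JTK_CYCLE and Lomb-Scargle in place of the fitted cosine the shares were 7.52% and 76.4%, and the members' counts were again 6 and 1. The difference between the members and all genes was not tested. Without the 2 libraries 11 members were rhythmic under both, against 11.7% of all genes. Of the 9, Adamts20 dropped out (DRF adjusted p = 0.0365 with all libraries and 0.0606 without), while Adamts5, Mmp15 and Mmp28 came in. Of those 11, 5 had peaks within 4 h (7.44% of the genes then rhythmic under both) and 4 had peaks 8 h or more apart (76.8%), and Mmp14 and Mmp2 lay between, at 4.02 and 4.14 h.

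**Figure D3:**
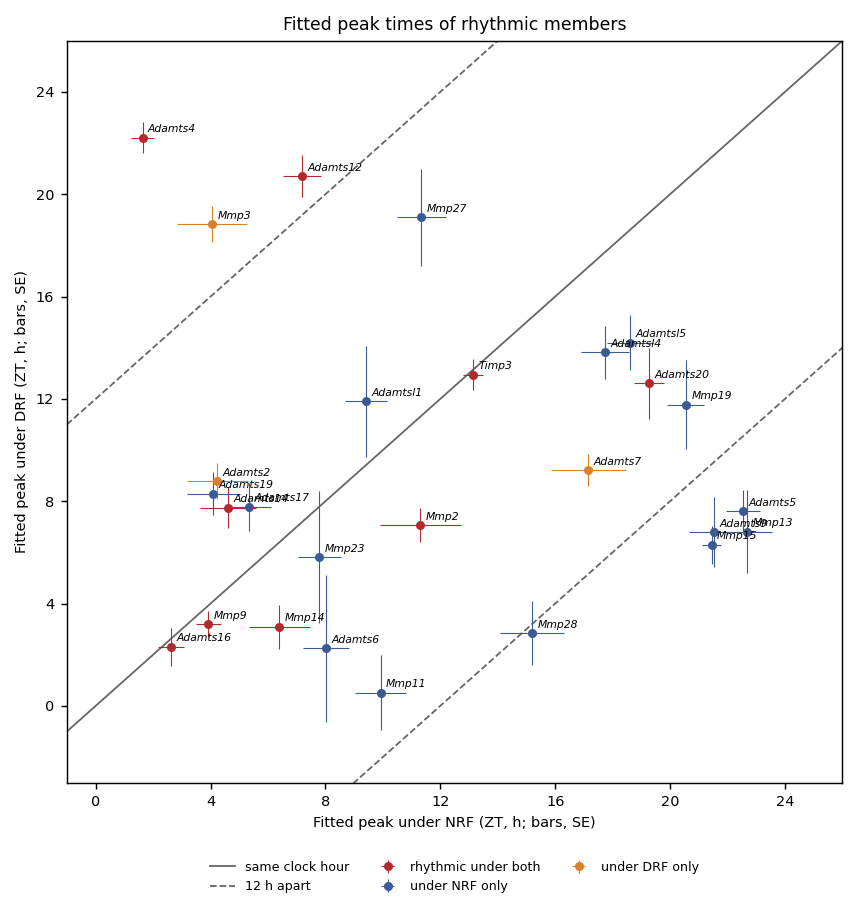
Fitted peak time under DRF is plotted against that under NRF, with SE, for the 27 members rhythmic under either regimen (red under both, blue under NRF only, orange under DRF only; ZT wraps at 24 h). Timp3, Mmp9 and Adamts16 lie within 1 h of the solid line of equal clock hour, and Mmp28 and Adamts12 lie closer to a dashed line, which marks 12 h apart.

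Timp3 (chr10:86300372-86349506) was 1 of 3 among the 9, with Mmp9 and Adamts16, whose fitted peaks in the 2 regimens lay within 1 h of each other. It peaked at ZT13.1 ± 0.35 (SE) under NRF and ZT12.9 ± 0.60 under DRF, a shift of 0.20 ± 0.70 h (adjusted p of the rhythm 3.37e-09 and 6.49e-05). The phases of JTK_CYCLE and Lomb-Scargle were 1.12 h apart in Timp3, 0.32 h in Mmp9 and 0.13 h in Adamts16, and the SEs of the fitted shifts do not separate the 3. At ZT12 the NRF mice had 277, 349, 304 and 338 CPM and the DRF mice 209.6, 179, 223 and 219 CPM, without overlap (-0.61 ± 0.12). At ZT24 the values overlapped, 159, 141, 141 and 141 CPM against 147, 165, 138 and 143 CPM. On the log2 scale the fitted cosine had an amplitude of 0.58 ± 0.05 with NRF and 0.34 ± 0.05 with DRF. The test of a rhythm difference gave an adjusted p of 0.015, and the call was lost without replicate 1, 2 or 3.

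Mmp9 peaked in the early light phase in both regimens, at ZT3.92 ± 0.43 under NRF and ZT3.2 ± 0.52 under DRF, with amplitudes of 0.69 ± 0.08 and 0.59 ± 0.08. The shift was 0.72 ± 0.68 h, and the rhythms did not pass the test of a difference (adjusted p = 0.596). At ZT4 the mice had 34.7, 35.4, 38.1 and 71 CPM under NRF and 31.5, 25.5, 29.5 and 28.7 CPM under DRF. At ZT16 they had 17, 11.8, 20.6 and 14 CPM under NRF and 11, 14, 12.7 and 12.6 CPM under DRF. In each regimen all 4 mice at ZT4 lay above all 4 at ZT16.

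Adamts16, a little-studied ADAMTS enzyme, had the largest amplitude of the members under NRF at 1.07 ± 0.12. It peaked at ZT2.61 ± 0.46 under NRF and ZT2.3 ± 0.76 under DRF, a shift of 0.31 ± 0.88 h, and did not pass the test of a difference (adjusted p = 0.148). Adamts4 had amplitudes of 0.98 ± 0.10 and 0.65 ± 0.10, and its peak lay at ZT1.63 ± 0.41 under NRF and ZT22.2 ± 0.61 under DRF, 3.42 h earlier. Under NRF its mice had 7.71, 9.1, 7.33 and 13.9 CPM at ZT0 and 1.72, 1.43, 2.31 and 2.54 CPM at ZT12. Under DRF the ZT12 mice had 4.5, 5.76, 3.79 and 4.05 CPM, all above the NRF mice of that time (0.88 ± 0.27), and the rhythms differed (adjusted p = 0.000124).

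**Figure D4:**
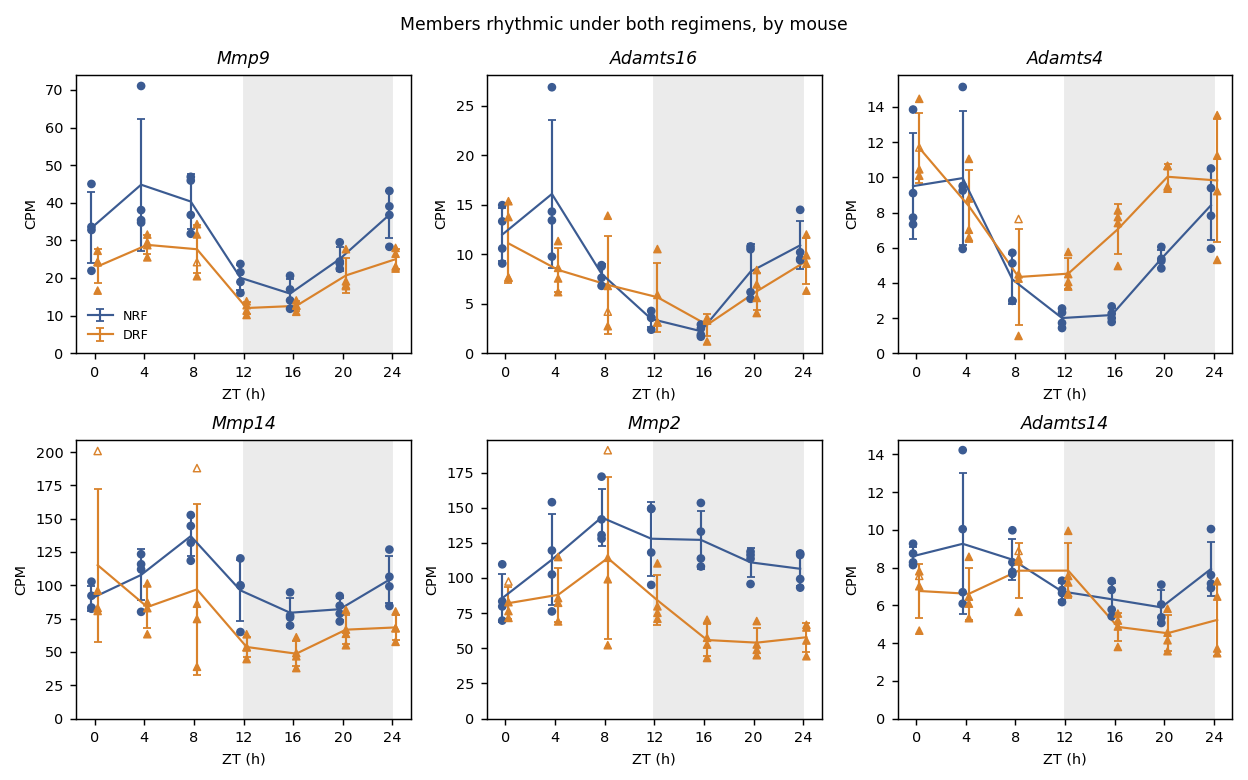
CPM of 6 of the 9 members rhythmic under both regimens is plotted against ZT for each mouse (circles NRF, triangles DRF, lines the group mean with SD, n = 4; open triangles the 2 DRF libraries that stood apart; grey, darkness). Mmp9 is lowest at ZT16 under NRF and ZT12 under DRF, and Adamts16 is lowest at ZT16 in both regimens.

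Mmp14 and Mmp2 moved by a few hours. The peak of Mmp14 was at ZT6.38 ± 1.06 under NRF and ZT3.09 ± 0.87 under DRF, and its rhythm difference passed without the 2 libraries (adjusted p = 0.0100) but not with all (0.111). The peak of Mmp2 was at ZT11.3 ± 1.42 and ZT7.06 ± 0.67, with an adjusted p of 0.0233 for the difference, a call that was lost under plain totals and without replicate 1 or 2. Adamts14 (ZT4.62 ± 0.97 and ZT7.75 ± 0.79) did not pass it (adjusted p = 0.101).

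Adamts12 (chr15:11064790-11349231), of the 9, had the peaks farthest apart. It peaked at ZT7.19 ± 0.65 under NRF and ZT20.7 ± 0.81 under DRF, with amplitudes of 0.44 ± 0.08 and 0.37 ± 0.08 (adjusted p = 5.54e-07 for the difference). At ZT20 the NRF mice, then in their feeding phase, had 57.7, 50.8, 55.1 and 51.6 CPM, and the DRF mice, then fasting, had 93.8, 116, 93.2 and 79.4 CPM. At ZT8 the NRF mice had 121, 74.8, 78.5 and 142 CPM and the DRF mice 39.2, 68, 31.8 and 70 CPM. The order of the regimens was thus opposite at these 2 times, with no overlap at either, and the fasting mice were the higher ones at both.

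The strongest rhythm difference of the set was that of Mmp15 (chr8:95352268-95375080), a membrane-type enzyme (adjusted p = 6.05e-12). Under NRF its mice had 61.7, 60.2, 57.6 and 54.9 CPM at ZT20 and 24.8, 16, 29.9 and 21.8 CPM at ZT8. At ZT4 the DRF mice had 77.8, 66.4, 69.4 and 67.9 CPM and the NRF mice 40.2, 37.4, 28.2 and 35.9 CPM (0.98 ± 0.15). The groups did not overlap in either pair, and in each the mice in their feeding phase were higher. Its fitted peak moved from ZT21.4 ± 0.34 to ZT6.29 ± 0.74. The DRF rhythm itself was not called (adjusted p = 0.293, and 0.0322 without the 2 libraries), and its amplitude was 0.32 ± 0.07 against 0.76 ± 0.07 under NRF.

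Adamts5 (chr16:85856173-85901828), an aggrecanase of cartilage, also moved (adjusted p = 8.99e-08). Its peak went from ZT22.5 ± 0.59 under NRF to ZT7.61 ± 0.83 under DRF, with amplitudes of 0.76 ± 0.11 and 0.50 ± 0.12. The DRF rhythm was not called with all libraries (adjusted p = 0.0787) and was called without the 2 libraries (0.00145). At ZT12 the mice had 73.9, 84.6, 94.2 and 103 CPM under NRF and 242, 253, 309.7 and 196 CPM under DRF, with no overlap (1.47 ± 0.30). Adamts1, its neighbour 53.1 kb away on chromosome 16, was not called rhythmic in either regimen (adjusted p = 0.623 under NRF).

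**Figure D5:**
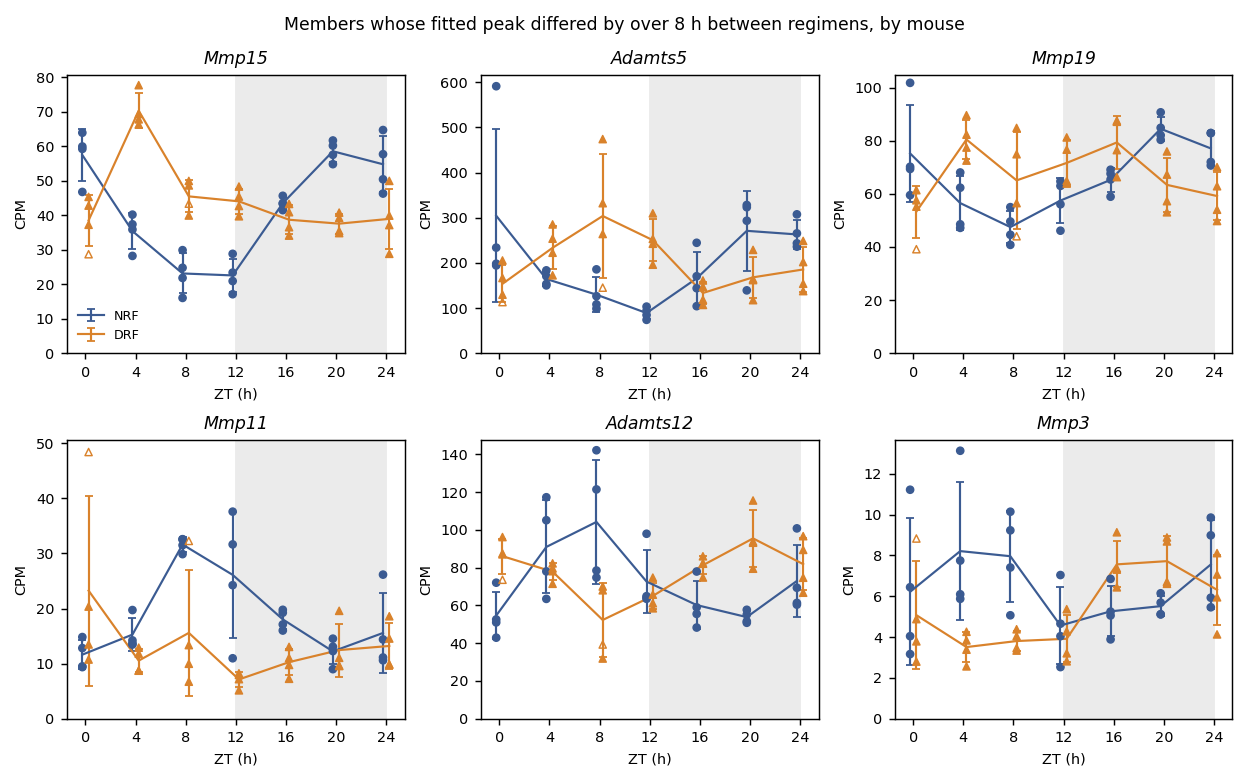
CPM of 6 members whose fitted peaks were more than 8 h apart is plotted against ZT for each mouse (circles NRF, triangles DRF, lines the group mean with SD, n = 4; open triangles the 2 DRF libraries that stood apart; grey, darkness). Under NRF the means of Mmp15, Adamts5 and Mmp19 are lowest at ZT8 or ZT12, and those of Mmp11, Adamts12 and Mmp3 are highest at ZT4 or ZT8.

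Mmp19, which cuts basement membrane proteins, was rhythmic under NRF with a peak at ZT20.6 ± 0.65 and an amplitude of 0.38 ± 0.07, and was not called under DRF, with 0.15 ± 0.06 (difference, adjusted p = 4.92e-05). Adamts9 peaked at ZT21.5 ± 0.87 under NRF, and at ZT4 the DRF mice, with 106, 107, 103 and 113 CPM, lay above the NRF mice, with 50.1, 41.1, 39.2 and 51.7 CPM (1.23 ± 0.22). Adamts20 peaked at ZT19.3 ± 0.51 and ZT12.6 ± 1.40 (difference, adjusted p = 2.48e-05) but had a median of only 1.64 CPM under NRF. Mmp28 was called under NRF alone with all libraries (DRF adjusted p = 0.570, and 0.0248 without the 2 libraries), and its groups were apart at ZT4, with 52.2, 42.3, 44.8 and 36.3 CPM under NRF and 87, 90.1, 85.8 and 92.2 CPM under DRF (1.01 ± 0.18).

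Mmp11 was higher in fasting than in feeding NRF mice, with 32.6, 32.6, 31.5 and 29.9 CPM at ZT8 and 14.5, 8.98, 12.3 and 13.1 CPM at ZT20, and its rhythm differed between regimens (adjusted p = 0.000142). Mmp3, the classical stromelysin, was called rhythmic under DRF alone, with a peak at ZT18.8 ± 0.70 and an amplitude of 0.53 ± 0.11. At ZT16 its DRF mice had 6.44, 7.31, 9.14 and 7.37 CPM and at ZT8 3.46, 4.04, 3.33 and 4.38 CPM, without overlap. Adamts7 under DRF peaked at ZT9.21 ± 0.63 with an amplitude of 0.44 ± 0.07, and its highest value, 20.3 CPM, was in the ZT8 library that stood apart. Its rhythm difference passed with and without the 2 libraries (adjusted p = 6.42e-05 and 9.02e-05). Adamts2 under DRF peaked at ZT8.79 ± 0.69 (difference, adjusted p = 0.00411).

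Compared time by time in limma, DRF and NRF differed in 30 of 47 members at 1 or more of the 7 times, against 44.3% of all genes. At ZT4 it was 14 members, against 19.5% of all genes, with 10 lower (9.04%) and 4 higher (10.4%). At ZT12 it was 12 (16.1%), with 7 lower (7.38%) and 5 higher (8.76%). Mmp15 passed at 6 times, higher under DRF at ZT4, ZT8 and ZT12 and lower at ZT0, ZT20 and ZT24. At ZT0 it was 7 members (10.5%), with 5 lower (5.06%) and 2 higher (5.41%). At ZT8 it was 9 (16.5%), with 5 lower (7.47%) and 4 higher (8.99%). Timp2 passed at ZT4, ZT12, ZT16 and ZT20, always lower. At ZT16 it was 6 members (9.97%), with 5 lower (4.97%) and 1 higher (5.0%). At ZT20 it was 9 (13.1%), with 6 lower (6.41%) and 3 higher (6.71%), and at ZT24 it was 6 (11.3%), with 5 lower (5.24%) and 1 higher (6.09%). Adamts4 was higher at ZT12, ZT16 and ZT20, by 1.33 ± 0.27 at ZT16. Without the 2 libraries the counts from ZT0 to ZT24 were 5, 16, 11, 16, 9, 11 and 8, against 11.2%, 23.7%, 19.3%, 19.5%, 13.7%, 16.3% and 15.0% of all genes. Of these members, 3, 12, 6, 10, 8, 8 and 7 were lower and 2, 4, 5, 6, 1, 3 and 1 higher. The shares of all genes by direction are not given here for that case. Among genes with at least 10 mean reads the counts were 9, 15, 11, 17, 8, 11 and 7 of 42 members, against 16.7%, 31.4%, 25.9%, 25.3%, 16.5%, 21.1% and 18.6% of such genes. With all other libraries kept, leaving out 1 replicate number lowered the counts by over 1.5 times at 6 of the 7 times. They were 1 to 2 at ZT0 (without replicate 2, 3 or 4, against 3.74% to 7.49% of all genes), 7 to 8 at ZT4 (replicate 3 or 4, 10.1% to 10.2%), 3 to 5 at ZT8 (replicate 2 or 4, 8.72% to 10.7%), 2 to 3 at ZT16 (any replicate, 5.33% to 5.97%), 3 to 4 at ZT20 (replicate 2, 3 or 4, 6.26% to 9.07%) and 1 to 3 at ZT24 (replicate 2, 3 or 4, 4.12% to 6.31%).

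Mid-feeding and mid-fasting were compared within each regimen, at ZT20 against ZT8 under NRF and at ZT8 against ZT20 under DRF. Under NRF 15 members passed, 8 higher and 7 lower while feeding, against 21.8% of all genes (11.8% higher, 10% lower). Mmp15 (1.33 ± 0.15), Adamts20 (1.2 ± 0.22), Timp4 (1.24 ± 0.42) and Adamts5 (1.02 ± 0.30) were higher while feeding, and Mmp11 (-1.32 ± 0.34), Adamts6 (-1.03 ± 0.27), Adamts12 (-0.89 ± 0.20) and Mmp14 (-0.73 ± 0.25) were lower. Under DRF 9 passed, 6 higher and 3 lower, against 11.5% (5.72% higher, 5.8% lower). Mmp2 (0.94 ± 0.22), Adamts7 (0.87 ± 0.18), Adamts2 (0.72 ± 0.18) and Adamts14 (0.68 ± 0.19) were higher, as were Adamts19 (0.82 ± 0.21) and Mmp10 (0.24 ± 0.08), and Adamts4 (-1.23 ± 0.27), Adamts12 (-0.92 ± 0.20) and Mmp3 (-0.86 ± 0.27) were lower. Without the 2 libraries 17 members passed under NRF, against 25.5% of all genes, and 8 under DRF, against 9.57%. The DRF calls of Adamts19 (0.60, adjusted p = 0.0613) and Mmp10 (0.08, adjusted p = 0.543) were then lost and that of Adamts5 gained (1.08, adjusted p = 0.0133), while Mmp2 still passed at 0.65 (adjusted p = 0.0445) and Adamts7 at 0.64 (adjusted p = 0.0117). Of the members, Adamts12 alone passed in both regimens with all libraries, and it was lower while feeding in each, and 5.58% of all genes passed in both. With at least 10 mean reads 17 of 42 members passed under NRF and 9 under DRF, against 33.2% and 18.6% of such genes. Without replicate 2 the counts fell to 7 under NRF and 3 under DRF, against 11.6% and 6.0% of all genes, and without replicate 4 to 9 under NRF, against 15.9%.

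By place, 6 members form a run on chromosome 9 (Mmp13, Mmp12, Mmp3, Mmp10, Mmp8 and Mmp27, chr9:7272514-7581885), and TGAGTCA is in a printed window of 4 of them (in 1 of the 2 windows of Mmp12). Their levels ran from 0.0366 RPKM for Mmp8 to 3.30 RPKM for Mmp3. Mmp13 (peak ZT22.7) and Mmp27 (peak ZT11.3) were called rhythmic under NRF, Mmp3 under DRF, and Mmp12, Mmp10 and Mmp8 under neither. Adamts15 and Adamts8 lie 20.1 kb apart in opposite orientation, and Adamts15 passed in mean level while Adamts8, at 0.101 RPKM, did not.

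Several members share exon bases with a gene on the opposite strand, and since the strand setting of the counting is not given in the sources used here, reads of such partners cannot be told apart. Mmp19 shares 22.3% of its exon bases with Tmem198b, whose mean level was 11.5 CPM, and Timp3, which lies inside the synapsin gene Syn3, shares 21.3% with it (0.802 CPM). Mmp28 shares 12% with 1700020L24Rik (12.2 CPM). Mmp11 shares 5.58% with Chchd10 (84.9 CPM). Their part in the members' differences was not tested.

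Genes that act with these enzymes were read from 4 lists outside the set. For comparison, 10.3% of all genes were lower and 11.4% higher in mean level, and 14.3% and 14.6% without the 2 libraries. The lists were not tested against these shares. Of 15 measured protease partners, 4 were lower and 1 higher in mean level, among them the urokinase Plau (-0.43 ± 0.07), the clearance receptor Lrp1 (-0.24 ± 0.05) and the proprotein convertases Pcsk5 (-0.44 ± 0.08) and Furin (0.18 ± 0.05), of which Furin activates Mmp14 and many ADAMTS enzymes. Reck, a membrane inhibitor of Mmp14 and Mmp9, was at -0.12 ± 0.05 (adjusted p = 0.053) and passed at -0.15 without the 2 libraries (adjusted p = 0.00606), where 6 partners were lower and 1 higher. It had peaks at ZT13 under NRF and ZT14.9 under DRF. Of 8 ADAM sheddases 1 was lower (Adam33, -0.31 ± 0.11) and 0 higher. Without the 2 libraries 1 was lower and 1 higher, the latter Adam9 (0.13, limma adjusted p = 0.011). Of 5 genes for procollagen processing 3 were lower (Bmp1, -0.16 ± 0.05, Pcolce, -0.20 ± 0.07, and Pcolce2, -0.39 ± 0.07) and 0 higher. Without the 2 libraries 2 of these were lower, Pcolce no longer passing (adjusted p = 0.0595).

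Of 13 measured substrates, 2 were lower and 2 higher, against 10.3% and 11.4% of all genes. The small proteoglycans Dcn (-0.43 ± 0.07), which is also one of the fibroblast markers, and Lum (-0.61 ± 0.09) fell. The large proteoglycans Vcan (0.27 ± 0.08) and Ncan (2.17 ± 0.18), which are of the kind that ADAMTS enzymes cut, rose. Vcan was rhythmic in both regimens, with peaks at ZT1.35 and ZT9.96. Fbn1, of the elastic fibre microfibrils, was rhythmic under NRF with a peak at ZT2.9 and an amplitude of 0.71. The von Willebrand factor gene Vwf (-0.11 ± 0.07) did not pass, and its protease Adamts13 was at 0 reads in 16 libraries.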

How the data were processed

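VAT RNA of 56 mice, 4 in each of 14 groups, had been sequenced by the authors (HISAT2 2.0.5, featureCounts 1.5.0-p3 and mm10 in the submitters' processing notes). The deposited values, headed TPM, are a score: they follow the logarithm of (CPM + 1) divided by exon length and rescaled per library. Whole reads were recovered from them for 25937 of 25939 genes, with 99.99% of the tested values within 0.02 reads of a whole number. Libraries held 30991988 to 41023908 reads, and 1 CPM stood for 31.8 to 47.3 reads. Symbols came from GENCODE vM21 (GRCm38).

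log2(CPM + 1) was fitted in limma 3.58.1 (R 4.3.3, trended empirical Bayes) with a 24-h cosine per regimen, or with the 14 group means, and Benjamini-Hochberg adjustment ran over all genes. A fold change on this scale understates the change of low genes. Rhythm was tested on the deposited values of each regimen with JTK_CYCLE and a Lomb-Scargle periodogram, whose p-values were joined by Fisher's method, in genes averaging 0.1 or more. Both procedures were tested on simulated data. The labels do not tie mice to cages, so p-values measure the spread between these samples.

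The members and lists were chosen with earlier results of these data known. Members were named by rule: all Timp genes, the 10 highest by RPKM, up to 8 by mean-level difference, up to 8 by rhythm difference and up to 5 rhythmic in both regimens. Other members and list genes were named after their values were seen. Alternatives were a pseudocount of 0.1 CPM, a minimum mean of 10 reads, other scalings, voom, a replicate block, group means, omission of ZT24, of each replicate number or of the 2 DRF libraries, and single rhythm tests. Mmp1a, Mmp1b, Mmp7 and Mmp20 were not analysed here. Values of some genes outside the set are not reported here.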

Additional observations from a re-analysis of the deposited data

Results flagged for a closer look

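Among 294 groups of 4 mice (21 named members in 14 groups), 18 had 1 mouse whose gap to the nearest other exceeded Dixon's 95% critical value, where chance gives about 1 in 20, or 14.7. Of these, 3 were in the DRF ZT0 library with raised uterine markers, where Mmp14 was at 201 CPM (others 80.7 to 96.0), Mmp23 at 33.3 CPM (22.2 to 22.9) and Timp1 at 4.75 CPM (1.17 to 1.70). Timp4 was flagged in 3 groups, each for replicate 3, at 159 CPM under NRF ZT20 (others 56.2 to 69.2), 185 CPM under DRF ZT8 (16.2 to 43.7) and 237 CPM under DRF ZT24 (92.6 to 107). Adamts5 stood at 591 CPM in NRF ZT0 replicate 2 (194 to 234), and Mmp9 at 71.0 CPM in NRF ZT4 replicate 4 and 27.7 CPM in DRF ZT20 replicate 4. Timp1 was at 5.53 CPM in NRF ZT0 replicate 1, Mmp11 at 19.7 CPM in NRF ZT4 replicate 2 and 19.6 CPM in DRF ZT20 replicate 1, and Adamts12 at 98.0 CPM in NRF ZT12 replicate 1. Adamts16 was at 14.5 CPM in NRF ZT24 replicate 1 and low at 1.2 CPM in DRF ZT16 replicate 1. Timp3 was at 159 CPM in NRF ZT24 replicate 1, Mmp28 at 66.1 CPM in NRF ZT24 replicate 2 and Adamts2 low at 80.1 CPM in DRF ZT0 replicate 3.

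The 24-h pattern differed between the regimens, by limma's test of the cosine terms, in 13 of the 21 named members. Of these 21, 8 had been named for this difference, so the count is partly set by the choice, and it was 21 of the 47 members and 36.0% of all genes. The adjusted p was 6.05e-12 for Mmp15, 8.99e-08 for Adamts5, 5.54e-07 for Adamts12, 2.48e-05 for Adamts20, 4.92e-05 for Mmp19, 6.42e-05 for Adamts7, 0.000124 for Adamts4 and 0.000142 for Mmp11. It was 0.000509 for Adamts9, 0.000714 for Mmp28, 0.00411 for Adamts2, 0.0150 for Timp3 and 0.0233 for Mmp2.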

How the results depend on the processing

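Leaving out 1 replicate number (14 libraries) gave 14 to 17 members with a different mean level (10 to 13 lower, 2 to 4 higher) and 15 to 18 with a different rhythm, against 14.7% to 17.7% and 28.4% to 31.9% of all genes. It gave 15 to 22 rhythmic under NRF (16.8% to 21.7% of all genes) and 6 to 7 under DRF (7.43% to 10.8%), and 1 to 7 differing at ZT0 (3.74% to 11.2%), 7 to 13 at ZT4 (10.1% to 20.3%), 3 to 8 at ZT8 (8.72% to 14.5%), 8 to 12 at ZT12 (8.22% to 13.8%), 2 to 3 at ZT16 (5.33% to 5.97%), 3 to 9 at ZT20 (6.26% to 11.7%) and 1 to 5 at ZT24 (4.12% to 11.3%). Between mid-feeding and mid-fasting it gave 7 to 15 under NRF (11.6% to 20.4%) and 3 to 9 under DRF (6.0% to 8.93%). Lomb-Scargle alone called 0 members and 0 of all genes in either regimen. With 28 libraries its p-value has a lower bound, so adjustment over all genes leaves little room for calls. The 0 is therefore no measure of absent rhythm. Before adjustment, 15 members under NRF and 7 under DRF had a Lomb-Scargle p under 0.05. JTK_CYCLE alone called 25 and 16 (30.3% and 18.6% of all genes), and the cosine F test in limma 27 and 21 (33.7% and 26.7%). Plain totals left 4 members at ZT0, against 7 in the main fit, and the share of all genes there under this scaling is not given here. The same scaling moved the share of lower calls among all genes in mean level from 47.4% to 61.0% (members, 16 lower and 3 higher). The cause was not tested. Without the 2 DRF libraries the lower calls went from 5 to 3 at ZT0 and from 5 to 8 at ZT16. Members rhythmic under both regimens with peaks 8 h or more apart went from 1 to 4 (77.3% and 76.8% of all genes rhythmic under both). Total counts under the other alternatives stayed within 1.5 times.

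Replicate numbers did not pair the mice (mean correlation 0.017 over 28 pairs, 7 over 0.1), so the replicate block stands here only: it gave 19 members in mean level and 21 in rhythm, as without it. Over all 25937 genes the block gave 5813 in mean level and 9546 in rhythm, against 5629 and 9338 without it. Of 416 alternative values for the mean level of 32 members, 379 kept direction and side of the threshold, 22 fell short, 5 came to pass and 10 changed sign. None of those that changed sign had passed the test. Without 1 replicate number Mmp28 ran from -0.0209 to 0.0386, Adamts12 from -0.0633 to 0.13 and Timp1 from -0.0431 to 0.0904. Under plain totals Mmp28 was at -0.0351 and Timp1 at -0.0189. Timp1 was at -0.0246 without the 2 DRF libraries, -0.0174 without ZT24 and -0.0269 with group means. Mmp2, Mmp9, Mmp11, Mmp14, Mmp17, Mmp23, Timp2, Adamts4, Adamts9, Adamts15 and Adamtsl1 passed in mean level under every alternative. Few reads limit the precision for Mmp8, Mmp10, Mmp21, Mmp24 and Adamts13, each under 10 mean reads. Their mean-level differences did not pass, and the part of depth in this was not tested.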
